A study of Homo sapiens with 6 samples.

Results

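The 60 genes described here are the protein-coding semaphorins of classes 3 to 7, plexins, neuropilins, ephrins, Eph receptors, SLIT ligands and ROBO receptors, families best known for steering axons. They were taken by gene symbol from the annotation, and all 60 were among the 58302 gene identifiers of the count tables and had reads. The data were bulk RNA sequencing counts from 6 libraries of A375, an established human melanoma cell line, which the genotype label divides into 2 groups of 3. The empty vector controls stably carried the vector alone, and the HMGB2-overexpressing cells stably carried extra HMGB2, a chromatin protein that bends DNA. The lines were made by lentiviral transduction and drug selection, and the libraries of a group came from separate cell pellets that the reporting form of the study calls technical replicates, so that p-values measure only the spread between pellets of a line and not between independent transductions. The comparison asks how the levels of guidance ligands and receptors differed between these lines.

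Semaphorins are secreted or membrane-bound ligands that act through plexins, and most secreted semaphorins need a neuropilin as co-receptor. Ephrins are held on the cell surface, by a lipid anchor in the ephrin-A class and a transmembrane segment in the ephrin-B class, and bind Eph receptor tyrosine kinases on neighbouring cells, with signalling into both cells. SLIT proteins are secreted and bind some of the ROBO receptors. Melanocytes derive from the neural crest, whose cells migrate through tissue along cues from these families, and Eph receptors are also well studied in melanoma.

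Each library held between 45925053 and 56755212 reads assigned to genes. HMGB2 had normalized counts, which are counts divided by the DESeq2 size factor of the library, of 7250, 7729 and 7562 in the controls and 15095, 16848 and 14609 in the overexpressing cells. All overexpressing libraries were above all controls, with a log2 fold change of 1.05 (SE 0.10). Of 10 melanocyte lineage markers, 7 received an adjusted p and 0 were called. MITF lay between 1381 and 1719 normalized counts, whereas TYR, DCT and MLANA did not exceed 10.8 in any library, and SOX10 was listed at 0 in the either-strand column although the stranded columns held 253416 reads of it over the 6 libraries. Of 5 leukocyte markers, only LYZ received an adjusted p, at between 488 and 701 normalized counts and without a call (log2 fold change 0.23), PTPRC was at 0 in every library, and CD3E and CD68 did not exceed 3.54. Of 5 epithelial markers, KRT20 was called lower (48.5, 37.2 and 3.22 against 0.908, 0 and 4.50), and EPCAM, KRT5, KRT14 and CDH1 were not called. KRT5 had 5.05, 11.5 and 279 normalized counts in the controls and 249.8, 199.9 and 289 in the overexpressing cells, so that for KRT20 and KRT5 the control replicate 3 lay with the overexpressing libraries, although its HMGB2 count did not. The libraries numbered 3 stood apart in these families. Among the 52 members with a mean normalized count of at least 10, the control replicate 3 was the lowest of its group in 37 (71.2%), against 41.8% of 16692 genes at the same minimum, and the overexpression replicate 3 was the lowest of its group also in 37 (71.2%), against 40.0% of those genes. The overexpression replicate 3 had 10.6% of its reads mapping to several places, against between 2.58% and 4.89% in the other libraries. Where leaving out these libraries changed the call of a member of these families, the value or range without them is given beside it. For signalling genes the number of settings that kept or lost a call is given instead, and for marker genes neither is given.

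EPHA2, SEMA7A, EPHB1, ROBO3 and ROBO4 were lower in HMGB2-overexpressing cells, and EPHA7, EPHA5, EPHB6, EFNA3 and SEMA3F were higher. Their log2 fold changes ran from -0.81 for ROBO3 to 1.98 for EPHA5. The 10 genes made up 17.9% of the 56 members that received an adjusted p. Calls were made where the p of a DESeq2 fit over all genes, adjusted by the Benjamini-Hochberg method, was under 0.05, and this fit called 4.93% of 18878 genes, 2.29% as higher and 2.64% as lower. By family, 5 of 13 tested Eph receptors, 2 of 4 ROBO receptors, 2 of 18 semaphorins and 1 of 8 ephrins were called, and 0 of 9 plexins, 0 of 2 neuropilins and 0 of 2 SLIT ligands. The median log2 fold change of the 56 tested members was 0.042, against 0.0027 over all genes tested, and the median size was 0.20 against 0.18. Of the 56 tested members, 30 had a positive fold change. The other 4 members, SEMA4A, SEMA5B, EPHA8 and SLIT1, held between 11 and 23 reads over the 6 libraries and were set aside by the DESeq2 filter on low means. The groups did not overlap in 14 of the 52 members with a mean normalized count of at least 10 (26.9%), a share close to the 22.8% of all genes at that minimum. They were the 10 called genes together with SEMA3D, SEMA4F, EFNB1 and EPHA6.

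**Figure D1:**
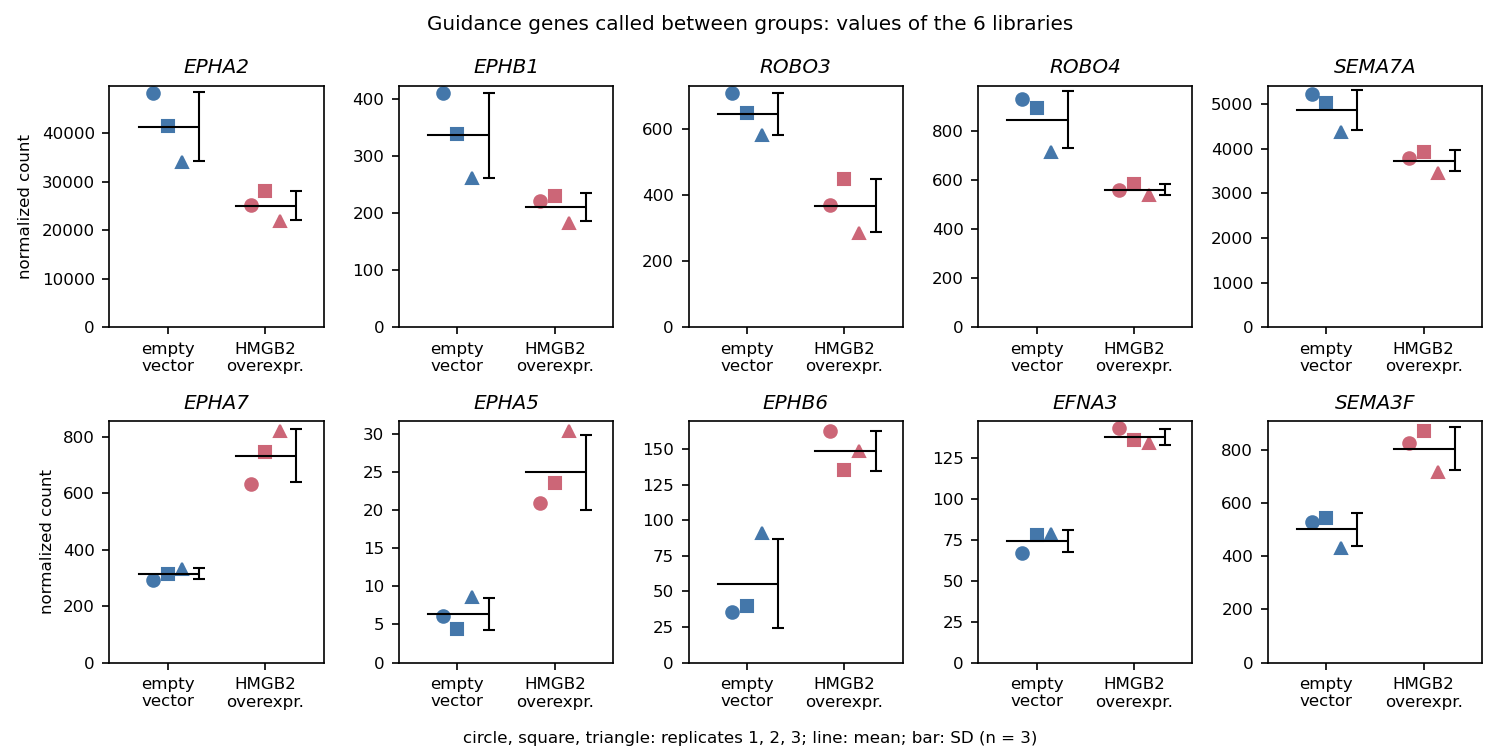
Normalized counts (vertical axes, each starting at 0) of the 10 called genes in the 3 empty vector and 3 HMGB2 overexpression libraries, with circles, squares and triangles for replicates 1, 2 and 3, lines at the mean and bars for the SD (n = 3). EPHA2 fell from between 34121 and 48250 to between 21933 and 28036, EPHA7 rose from between 294 and 333 to between 633 and 822, and no gene has overlapping groups.

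Of the 10 calls, those of EPHA2, ROBO3, SEMA3F and EPHA7 were kept under all 14 alternative settings. The promoters of the first 3 and of ROBO4, the neighbour of ROBO3, are given as the 250 bases before the RefSeq start site on GRCh38.p14, read 5′ to 3′ on the strand of the gene. They are EPHA2 at chr1:16156070-16156319 (minus strand), SEMA3F at chr3:50154808-50155057 (plus strand), ROBO3 at chr11:124865182-124865431 (plus strand) and ROBO4 at chr11:124897866-124898115 (minus strand). The last bases of the SEMA3F and ROBO4 windows are annotated as first exon in other transcripts of the same gene, and some ROBO4 transcripts start further upstream. Capitals mark a cAMP response element (TGACGTCA), which lies 51 bases before the start of EPHA2, and an octamer (ATGCAAAT), which lies 52 bases before the start of SEMA3F.
EPHA2: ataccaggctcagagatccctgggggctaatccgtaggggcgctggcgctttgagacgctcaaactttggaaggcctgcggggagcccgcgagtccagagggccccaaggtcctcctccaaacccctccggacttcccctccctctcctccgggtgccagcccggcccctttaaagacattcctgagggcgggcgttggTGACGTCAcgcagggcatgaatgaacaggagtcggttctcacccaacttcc
SEMA3F: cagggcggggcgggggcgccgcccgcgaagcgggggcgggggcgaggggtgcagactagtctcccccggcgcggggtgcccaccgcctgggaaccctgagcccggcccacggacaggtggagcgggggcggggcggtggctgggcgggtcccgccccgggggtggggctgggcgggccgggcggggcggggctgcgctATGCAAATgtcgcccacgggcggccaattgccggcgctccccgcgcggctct
ROBO3: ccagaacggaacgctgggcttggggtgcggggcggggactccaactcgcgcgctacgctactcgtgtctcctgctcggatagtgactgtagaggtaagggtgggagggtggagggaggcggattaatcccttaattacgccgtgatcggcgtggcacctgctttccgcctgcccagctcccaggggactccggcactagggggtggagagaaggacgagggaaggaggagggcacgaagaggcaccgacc
ROBO4: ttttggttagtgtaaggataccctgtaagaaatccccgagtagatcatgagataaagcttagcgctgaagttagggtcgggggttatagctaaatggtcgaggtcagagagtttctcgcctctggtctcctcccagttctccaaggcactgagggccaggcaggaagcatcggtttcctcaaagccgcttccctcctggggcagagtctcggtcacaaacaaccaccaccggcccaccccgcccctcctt

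RefSeq promoters of this length matched 54 of the 60 members. The motifs were picked after the sequences had been seen, were searched on both strands, and a match describes letters only. GC boxes (GGGCGG or CCGCCC) occurred in 42 of the 54 member promoters (77.8%) and in all 10 of the called members, against 42.6% of 35116 promoters, and the SEMA3F window alone held 12 of them. The member promoters were also richer in G and C, with a median of 65.8% against 58% for all. The cAMP response element was in 2 of 54 (3.70%) against 1.65% of all promoters, the octamer or its reverse (ATTTGCAT) in 1 of 54 (1.85%) against 1.63%, and the AP-1 site (TGANTCA) in 0 of 54 against 6.57%.

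Among the secreted semaphorins, SEMA3F rose and the other 6 were not called. SEMA3F (ENSG00000001617, chr3:50155045-50189075, plus strand), a repellent ligand that signals through NRP2 and plexins of the A class, had normalized counts of 529, 545 and 429 in the controls and 826, 873 and 717 in the overexpressing cells. The lowest overexpressing library, replicate 3, was above the highest control. The log2 fold change was 0.68 (SE 0.15, adjusted p = 0.0003), and it ran from 0.59 to 0.76 over the alternatives. Its share of all semaphorin transcripts, on the length-corrected TPM scale (transcripts scaled to a fixed total per library), was 1.43% ± 0.046 in the controls and 2.52% ± 0.024 in the overexpressing cells (SD, n = 3). SEMA3B, a secreted semaphorin studied as a tumour suppressor, had the highest level of its class, 122 ± 34.3 TPM in the controls and 99.97 ± 18.9 TPM in the overexpressing cells. Its normalized counts were 11320, 10564 and 6922 against 8138, 9196 and 6847, so the groups overlapped through control replicate 3. Its log2 fold change was -0.25 (SE 0.19) and it was not called, whereas without control replicate 3 it was -0.44 and called (adjusted p = 0.00184). SEMA3C, at 53.7 ± 4.95 TPM in the controls, differed by 0.13 on the log2 scale (95% interval -0.064 to 0.32), and SEMA3A, the prototype repellent of sensory axons, by -0.10 (-0.30 to 0.099). SEMA3D had 668, 733 and 747 normalized counts in the controls and 617, 536 and 607 in the overexpressing cells. These groups did not overlap, and the log2 fold change of -0.29 (SE 0.13) was not called (adjusted p = 0.227). SEMA3E and SEMA3G lay under 3 TPM in every library.

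Among the membrane-bound semaphorins, SEMA7A fell and the other 10 tested members were not called. SEMA7A (ENSG00000138623, chr15:74409289-74433958, minus strand) is held by a lipid anchor and binds PLXNC1 and integrins. It had 5214, 5009 and 4360 normalized counts in the controls and 3794, 3928 and 3462 in the overexpressing cells. Each group was tight and the highest overexpressing library lay below the lowest control. SEMA7A thus differed by -0.38 on the log2 scale (SE 0.12, adjusted p = 0.0235). The call was lost in the edgeR quasi-likelihood test (adjusted p = 0.0846) and without any library but control replicate 3 (adjusted p between 0.118 and 0.362), and without that one it was kept. PLXNC1, its receptor, was low, at 0.844 ± 0.049 TPM in the controls and 0.870 ± 0.065 TPM in the overexpressing cells, and its log2 fold change of 0.073 had an interval from -0.33 to 0.47. SEMA6B, a transmembrane semaphorin that binds plexins of the A class, had the highest level of all semaphorins, 150 ± 28.8 TPM in the controls and 131 ± 22.0 TPM in the overexpressing cells. SEMA6B differed by -0.16 on the log2 scale (SE 0.15), and was called only without control replicate 3 (-0.28, adjusted p = 0.0472) and with replicates 1 and 2 alone (-0.19, adjusted p = 0.0403). SEMA4B had 1570, 1483 and 1219 normalized counts against 1855, 2008 and 1474, and overlapped through overexpression replicate 3. Its log2 fold change of 0.32 (SE 0.16) was not called, but was with replicates 1 and 2 alone (0.34, adjusted p = 0.00337), with a term for replicate 3 (adjusted p = 0.00115) and with a replicate block (adjusted p = 0.0117). SEMA4F, at 894, 865 and 926 against 999, 1005 and 950, did not overlap between groups and differed by 0.14 (SE 0.11) on the log2 scale, without a call. SEMA4G, which kept 38.1% of the sum of its stranded counts because it shares its place with another gene, had a log2 fold change of -0.017 that turned to 0.078 in the stranded sum.

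Of the receptors of semaphorins, none was called. NRP1, which is also a co-receptor for VEGF, was the higher of the neuropilins at 30.8 ± 7.2 TPM in the controls and 26.5 ± 2.88 TPM in the overexpressing cells. Its normalized counts of 5355, 5460 and 3751 in the controls and 4431, 4459 and 3930 in the overexpressing cells overlapped through control replicate 3 alone. NRP1 differed by -0.18 on the log2 scale (SE 0.16), and by -0.34 (adjusted p = 0.0038) without that library. It was also called with replicates 1 and 2 alone (-0.28, adjusted p = 0.000459), but not with a term for replicate 3 (-0.17, adjusted p = 0.126). NRP2, the co-receptor of SEMA3F, showed the same arrangement, at 4908, 4921 and 2920 against 4145, 4422 and 3532. NRP2 differed by -0.076 on the log2 scale (SE 0.20, interval -0.46 to 0.31), and by -0.28 (adjusted p = 0.0436) without control replicate 3. It was called with replicates 1 and 2 alone (-0.20, adjusted p = 0.035), but not with a term for replicate 3 (-0.043, adjusted p = 0.818). Without control replicate 1 or 2 its log2 fold change was positive (0.038 and 0.041).

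PLXNB2, a receptor of class 4 semaphorins, had the highest plexin level, 58.0 ± 16.0 TPM in the controls and 54.4 ± 10.4 TPM in the overexpressing cells, and differed by -0.060 on the log2 scale (interval -0.43 to 0.31). PLXNA2, a receptor of transmembrane and secreted semaphorins, had 823, 741 and 439 normalized counts in the controls and 481, 503 and 365 in the overexpressing cells. Only control replicate 3 reached into the range of the overexpressing cells. The log2 fold change was -0.57 (SE 0.23, adjusted p = 0.164), and -0.80 (adjusted p = 1.16e-05) without control replicate 3. With replicates 1 and 2 alone it was -0.67 (adjusted p = 2.08e-05), and it was also called with a term for replicate 3 (adjusted p = 0.000206) and a replicate block (adjusted p = 0.00283). PLXNB3, a receptor of SEMA5A, behaved alike at 2520, 2308 and 1345 against 1591, 1821 and 1322, with -0.38 (SE 0.22, adjusted p = 0.444), and -0.61 (adjusted p = 5.4e-05) without that library. The term for replicate 3 (adjusted p = 0.00689) and the block (adjusted p = 0.0283) called it as well. Of its 50-base words, 18.3% also occur in its neighbour SRPK3. PLXNA1, PLXNA3, PLXNB1 and PLXND1 lay between 5.46 and 14.6 TPM on average in the controls, with log2 fold changes between -0.12 and 0.25. PLXNA4 rested on 47 reads in all, with a log2 fold change of 1.88 (interval 0.34 to 3.42) that was not called (adjusted p = 0.184).

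**Figure D2:**
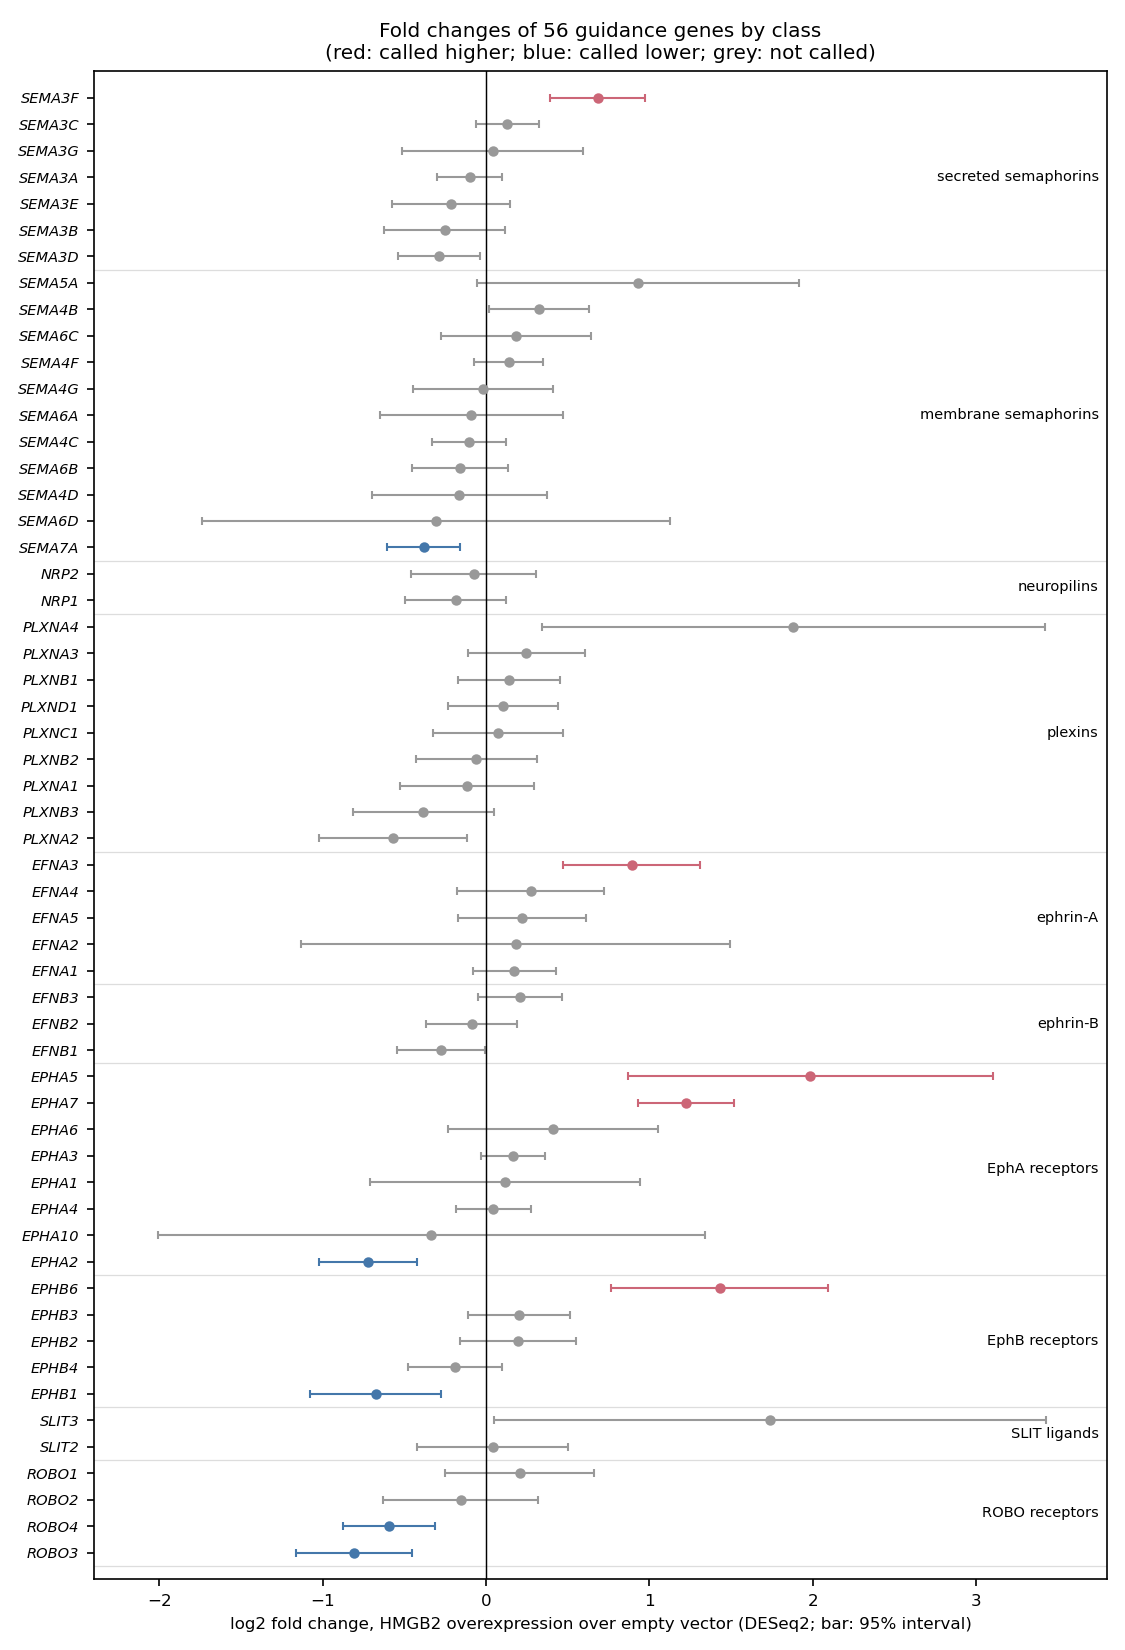
Log2 fold changes of HMGB2 overexpression over empty vector (horizontal axis, DESeq2, bars for 95% intervals) of the 56 tested members in order of class. The 5 genes called higher (red) run from 0.68 (SEMA3F) to 1.98 (EPHA5), the 5 called lower (blue) from -0.81 (ROBO3) to -0.38 (SEMA7A), and most of the 46 uncalled genes (grey) have intervals that include 0.

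Ephrin-A ligands all had positive fold changes, of which EFNA3 was called. EFNA3 (ENSG00000143590, chr1:155078837-155087538, plus strand), a ligand of EphA receptors, had 66.7, 78.0 and 78.3 normalized counts in the controls and 144, 136 and 134 in the overexpressing cells. The groups were far apart against their spread, and the log2 fold change was 0.89 (SE 0.21, adjusted p = 0.00166). The call was lost without control replicate 1 (adjusted p = 0.0965) and without overexpression replicates 1 (0.097) or 2 (0.064). Of its 50-base words, 41.4% also occur in the readthrough gene EFNA4-EFNA3, which was listed at 0 in all libraries. Reads in places shared by both genes were set aside, so the level per length of EFNA3 may be an underestimate. Its share of all ephrin transcripts was 3.16% ± 0.19 in the controls and 5.30% ± 0.47 in the overexpressing cells (TPM, SD, n = 3). EFNA4 and EFNA1, its neighbours on either side on chromosome 1, had log2 fold changes of 0.27 (SE 0.23) and 0.17 (SE 0.13) and were not called. EFNA1, the best-known ligand of EPHA2, had the highest ephrin level, 26.6 ± 1.66 TPM in the controls and 29.5 ± 1.46 TPM in the overexpressing cells. EFNA5 differed by 0.22 (interval -0.17 to 0.61), and EFNA2 held 57 reads in all.

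The ephrin-B ligands were not called. EFNB3 had the highest level of the class, 15.0 ± 1.07 TPM in the controls and 17.0 ± 0.26 TPM in the overexpressing cells, with a log2 fold change of 0.21 (SE 0.13). EFNB2, a marker of arterial endothelium that binds EPHB4, differed by -0.089 (interval -0.36 to 0.19). EFNB1 had 450, 445 and 388 normalized counts in the controls and 348, 354 and 358 in the overexpressing cells. Its groups did not overlap, and its log2 fold change of -0.28 (SE 0.14) had an adjusted p of 0.325.

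EPHA2 fell and EPHA7 and EPHA5 rose among the EphA receptors. EPHA2 (ENSG00000142627, chr1:16124337-16156069, minus strand), a receptor of ephrin-A ligands that is abundant in many cancers, had 48250, 41541 and 34121 normalized counts in the controls and 25187, 28036 and 21933 in the overexpressing cells. Control replicate 3 was the lowest control and still above every overexpressing library. The log2 fold change was -0.72 (SE 0.15, adjusted p = 0.000192), a difference of -39.3%, and ran from -0.84 to -0.60 over the alternatives. Per length, EPHA2 had the highest level of all 60 members, 729 ± 153 TPM in the controls and 433 ± 71.4 TPM in the overexpressing cells. It made up 87.8%, 85.8% and 85.0% of Eph receptor transcripts in the controls and 78.1%, 79.6% and 77.4% in the overexpressing cells, and the summed level of the EphA receptors went from 790 ± 154 to 501 ± 76.1 TPM. Of 5 markers of neural crest-like and invasive melanoma, AXL and NGFR were also called lower, TNC and JUN were not called, and SOX9 was higher in every overexpressing library without a call (log2 fold change 0.42). The list summed to between 499.6 and 804.8 TPM in the controls and between 404.6 and 556.9 TPM in the overexpressing cells, and its part in the EPHA2 difference was not tested.

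EPHA7 (ENSG00000135333, chr6:93240020-93419687, minus strand), a receptor best known from the developing brain, had 294, 315 and 333 normalized counts in the controls and 633, 747 and 822 in the overexpressing cells. The groups were separated by more than the whole range of either, and replicate 3 was the highest library of both. The log2 fold change was 1.22 (SE 0.15, adjusted p = 2.22e-13), or 2.34-fold, with a range from 1.13 to 1.32 over the alternatives. Its level remained low beside EPHA2, at 1.38 ± 0.039 TPM in the controls and 3.17 ± 0.38 TPM in the overexpressing cells, or 0.169% ± 0.037 and 0.586% ± 0.126 of Eph receptor transcripts.

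EPHA5 (ENSG00000145242, chr4:65319563-65670495, minus strand), likewise best known from neurons, had 6.06, 4.43 and 8.59 normalized counts in the controls and 20.9, 23.6 and 30.4 in the overexpressing cells. It rested on 93 reads over the 6 libraries. The groups did not overlap, and the log2 fold change was 1.98 (SE 0.57, adjusted p = 0.0147). The call was kept without control replicate 3 (adjusted p = 0.0132) and lost without any other library (adjusted p between 0.105 and 0.261), and with replicates 1 and 2 alone the gene received no adjusted p. SNAP25, a synaptic gene on the neuron marker list, was also called higher (log2 fold change 1.07), whereas RBFOX3 (-4.59) and SYT1 (-0.81) of the same list were called lower. The summed level of that list's 5 genes lay between 8.30 and 13.4 TPM in the controls and between 5.52 and 7.92 TPM in the overexpressing cells, and its part in the results on EPHA5 and EPHA7 was not tested.

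The other EphA receptors were not called. EPHA3 was the next in level, at 50.5 ± 3.79 TPM in the controls and 55.5 ± 4.57 TPM in the overexpressing cells, and its log2 fold change of 0.16 had an interval from -0.033 to 0.36. EPHA4, a receptor of both ephrin classes, differed by 0.044 (interval -0.19 to 0.27). EPHA6 had 47.5, 52.3 and 27.9 normalized counts against 58.1, 58.1 and 54.0, did not overlap between groups and differed by 0.41 (SE 0.33) without a call. EPHA1 kept 1.65% of the sum of its stranded counts, since it overlaps other genes, and its log2 fold change of 0.12 (SE 0.42) turned to -0.37 in the stranded sum. EPHA10 held 39 reads in all.

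Among the EphB receptors, EPHB1 fell and EPHB6 rose. EPHB1 (ENSG00000154928, chr3:134795260-135260467, plus strand), a receptor of ephrin-B ligands, had 411, 338 and 262 normalized counts in the controls and 221, 229 and 182 in the overexpressing cells. The lowest control and the highest overexpressing library lay close together, and replicate 3 was the lowest of both groups. EPHB1 differed by -0.68 on the log2 scale (SE 0.20, adjusted p = 0.024). The call was lost in the edgeR test (adjusted p = 0.0905) and without any library but control replicate 3 (adjusted p between 0.0808 and 0.408), and was kept without that one at -0.83 (adjusted p = 0.000206).

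EPHB6 (ENSG00000106123, chr7:142855061-142871094, plus strand), an Eph receptor whose kinase domain is inactive, had 35.4, 39.9 and 91.2 normalized counts in the controls and 163, 135 and 149 in the overexpressing cells. Control replicate 3 was more than the sum of the other controls, yet below all overexpressing libraries. EPHB6 differed by 1.43 on the log2 scale (SE 0.34, adjusted p = 0.00124), and by 1.98 (adjusted p = 8.98e-10) without control replicate 3. The edgeR test gave an adjusted p of 0.0567.

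EPHB4, a receptor of EFNB2 known from veins, had the highest level of the EphB class, 34.2 ± 6.64 TPM in the controls and 29.3 ± 4.41 TPM in the overexpressing cells. Its log2 fold change was -0.19 (SE 0.15) and was called without control replicate 3 (-0.31, adjusted p = 0.0348) and with replicates 1 and 2 alone (-0.23, adjusted p = 0.0458). Its share of Eph receptor transcripts was 4.06% ± 0.065 in the controls and 5.33% ± 0.014 in the overexpressing cells, a share whose denominator is mostly EPHA2. EPHB2 and EPHB3 had log2 fold changes of 0.19 (interval -0.16 to 0.55) and 0.20 (-0.11 to 0.51).

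**Figure D3:**
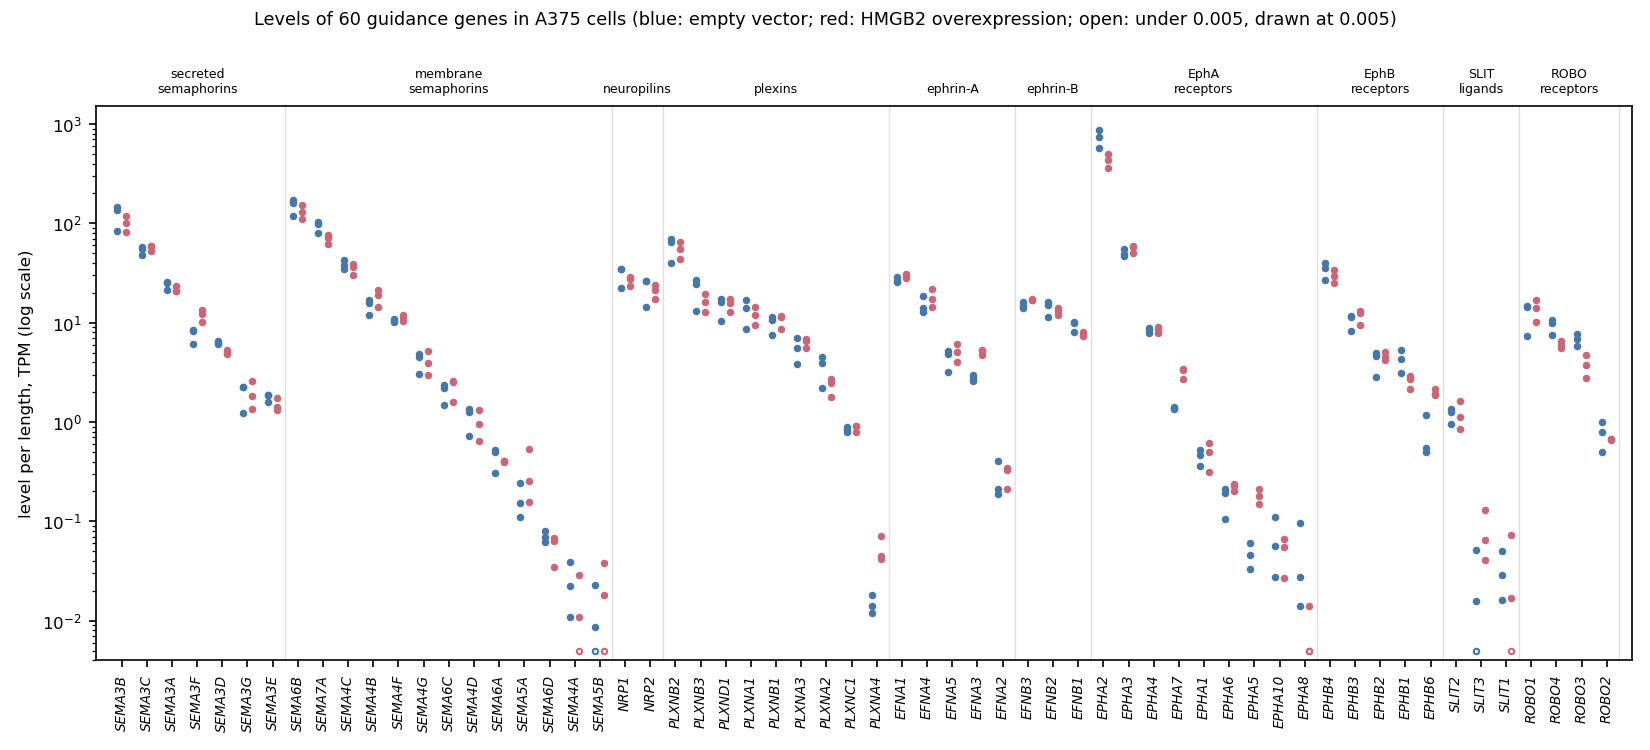
Levels per length of the 60 members (vertical axis, TPM on a log scale) in the empty vector (blue) and HMGB2 overexpression (red) libraries, 1 point a library, ordered by class and mean level. EPHA2 is the highest member at 729 ± 153 TPM in the controls, SEMA6B and SEMA3B follow, and 24 of the 60 members average over 10 TPM.

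SLIT2 was the 1 SLIT ligand with a level over 1 TPM, at 1.19 ± 0.20 TPM in the controls and 1.20 ± 0.39 TPM in the overexpressing cells. The difference was 0.040 on the log2 scale (SE 0.24, interval -0.42 to 0.50). SLIT3 held 63 reads in all, at 3.03, 0.886 and 10.7 normalized counts against 26.3, 7.88 and 13.5, and the groups overlapped through control replicate 3. Its log2 fold change of 1.74 (SE 0.86) had an adjusted p of 0.327.

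ROBO3 and ROBO4 fell, and ROBO1 and ROBO2 were not called. ROBO3 (ENSG00000154134, chr11:124865432-124881471, plus strand), a receptor needed for axons to cross the midline, had 708, 649 and 582 normalized counts in the controls and 370, 448 and 287 in the overexpressing cells. All overexpressing libraries lay below all controls, and the log2 fold change was -0.81 (SE 0.18, adjusted p = 0.000502), with a range from -0.98 to -0.66 over the alternatives. ROBO4 (ENSG00000154133, chr11:124883691-124898500, minus strand), a receptor best known from endothelium, had 930, 896 and 714 normalized counts in the controls and 561, 583 and 539 in the overexpressing cells. The overexpressing libraries were close together and below all controls. The log2 fold change was -0.59 (SE 0.14, adjusted p = 0.00164), and the call was lost without control replicate 1 (adjusted p = 0.095), control replicate 2 (0.0595) or overexpression replicate 1 (0.0559). ROBO4 kept 77.4% of the sum of its stranded counts, and that sum gave the call with a log2 fold change of -0.61.

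Of the endothelial markers, KDR was also called lower (log2 fold change -1.11, adjusted p = 0.00115), while PECAM1 (0.48), CDH5 (1.83), VWF (-0.40) and TEK (-0.78) lay on both sides of 0 and were not called. The summed level of these 5 genes lay between 2.29 and 2.499 TPM in the controls and between 1.50 and 1.86 TPM in the overexpressing cells, and CDH5 was at 0 in 1 control. Their part in the ROBO4 result was not tested. In bulk RNA of a cell line, fewer cells expressing a gene and less RNA per expressing cell cannot be told apart. ROBO3 and ROBO4 lie tail to tail on chromosome 11 with 2219 bases between their annotated ends, on opposite strands, and the libraries do not mark strand. The called members had 16 other nearest tested neighbours, with log2 fold changes between -0.42 (CCDC15, beside ROBO4) and 1.04 (PRSS1, SE 2.30). DESeq2 called 0 of them, against 4.93% of all genes. At that share 16 genes would hold few calls or none.

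ROBO1, the widely expressed SLIT receptor, had the highest ROBO level, 12.1 ± 4.16 TPM in the controls and 13.7 ± 3.37 TPM in the overexpressing cells. Its normalized counts of 2115, 2193 and 1172 against 2202, 2486 and 1632 overlapped, with replicate 3 the lowest of both groups, and the log2 fold change was 0.21 (SE 0.23, interval -0.25 to 0.66). Within the ROBO transcripts its share was 41.0% ± 5.44 in the controls and 56.2% ± 3.0 in the overexpressing cells, while that of ROBO3 was 23.8% ± 3.23 and 15.5% ± 0.99 and that of ROBO4 32.6% ± 2.48 and 25.4% ± 3.25 (SD, n = 3). ROBO2 averaged under 1 TPM and differed by -0.16 (interval -0.63 to 0.32).

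Ligand and receptor partners can be set side by side. SEMA3F rose while NRP2 differed by -0.076, and SEMA7A fell while PLXNC1 differed by 0.073 on the log2 scale. EFNA3, EPHA7 and EPHA5 rose within a ligand and receptor class whose highest receptor, EPHA2, fell. The summed level of the ephrin-A ligands was 49.2 ± 3.44 TPM in the controls and 57.8 ± 4.27 TPM in the overexpressing cells, and that of the ephrin-B ligands 38.6 ± 2.59 and 37.6 ± 1.55 TPM. The plexins summed to 127 ± 35.7 and 118 ± 21.1 TPM and the semaphorins to 532 ± 92.2 and 474 ± 65.9 TPM, differences smaller than the SD of the controls.

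Of genes that act below these receptors, few were called, and their share moved with the libraries used. Of a list of 75 such genes, 74 received an adjusted p, 3 rose and 3 fell (8.11%, against 4.93% of all genes), and the median log2 fold change was -0.024. VAV3, a signalling protein that Eph receptors recruit, rose from 49.5, 43.4 and 49.4 to 122.6, 83.7 and 94.5 normalized counts (log2 fold change 1.09, adjusted p = 0.00313). PTPRO, a phosphatase of Eph receptors, rose by 0.87 (adjusted p = 0.0167), and GRIP1, a scaffold that binds ephrin-B and EphB tails, by 0.79 (adjusted p = 0.0467). GRB10, an adaptor of tyrosine kinases, had 2676, 2665 and 1935 normalized counts in the controls and 1567, 1411 and 957 in the overexpressing cells, a log2 fold change of -0.89 (adjusted p = 0.000478). RASA1, a GTPase-activating protein for Ras that binds Eph receptors, fell by 0.39 (adjusted p = 0.00104), and ABL2, a tyrosine kinase of the ABL family, by 0.43 (adjusted p = 0.0401). The groups did not overlap in any of these 6 genes. Because the genes were picked by their calls on the same libraries, this separation adds no support to the calls. None of the 6 genes was called under all 14 alternatives. GRB10 lost its call with edgeR alone (adjusted p = 0.0505), VAV3 under 3 and RASA1 under 4 alternatives that left out a library, and PTPRO, ABL2 and GRIP1 kept theirs under 8, 7 and 4 alternatives. Without empty vector replicate 1, empty vector replicate 2 or overexpression replicate 1, 1 gene of the list was called (1.35% or 1.37%, against at most 2.57% of all genes), and without empty vector replicate 3 it was 14 of 73 (19.2%, against 17.1%).

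The libraries numbered 3 bore on the count of lower members more than on that of higher ones. With replicates 1 and 2 alone, 12 of 50 members were called lower (24%, against 9.11% of all genes) and 5 higher (10% against 7.79%). The added lower members were PLXNA2, PLXNB3, SEMA3B, SEMA6B, NRP1, NRP2 and EPHB4. The 5 higher members were not the same as in the main fit, since EPHA5 received no adjusted p and SEMA4B was added (adjusted p = 0.00337). A DESeq2 fit of all 6 libraries used a term for replicate 3 against the others. It called 8 of 51 members lower (15.7%, against 8.68% of all genes) and 6 higher (11.8% against 8.74%). Control replicate 3 was the lowest of all 6 libraries in 20 of the 52 members (38.5%), against 23.7% of genes, and its median difference from the mean of the other controls, as log2(normalized count + 1), was -0.35 against 0.0031 for all genes. For overexpression replicate 3 the difference from the other overexpressing libraries was -0.21 against -0.0074. Both were the lowest of their group in 32 members (61.5%), against 28.9% of genes.

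**Figure D4:**
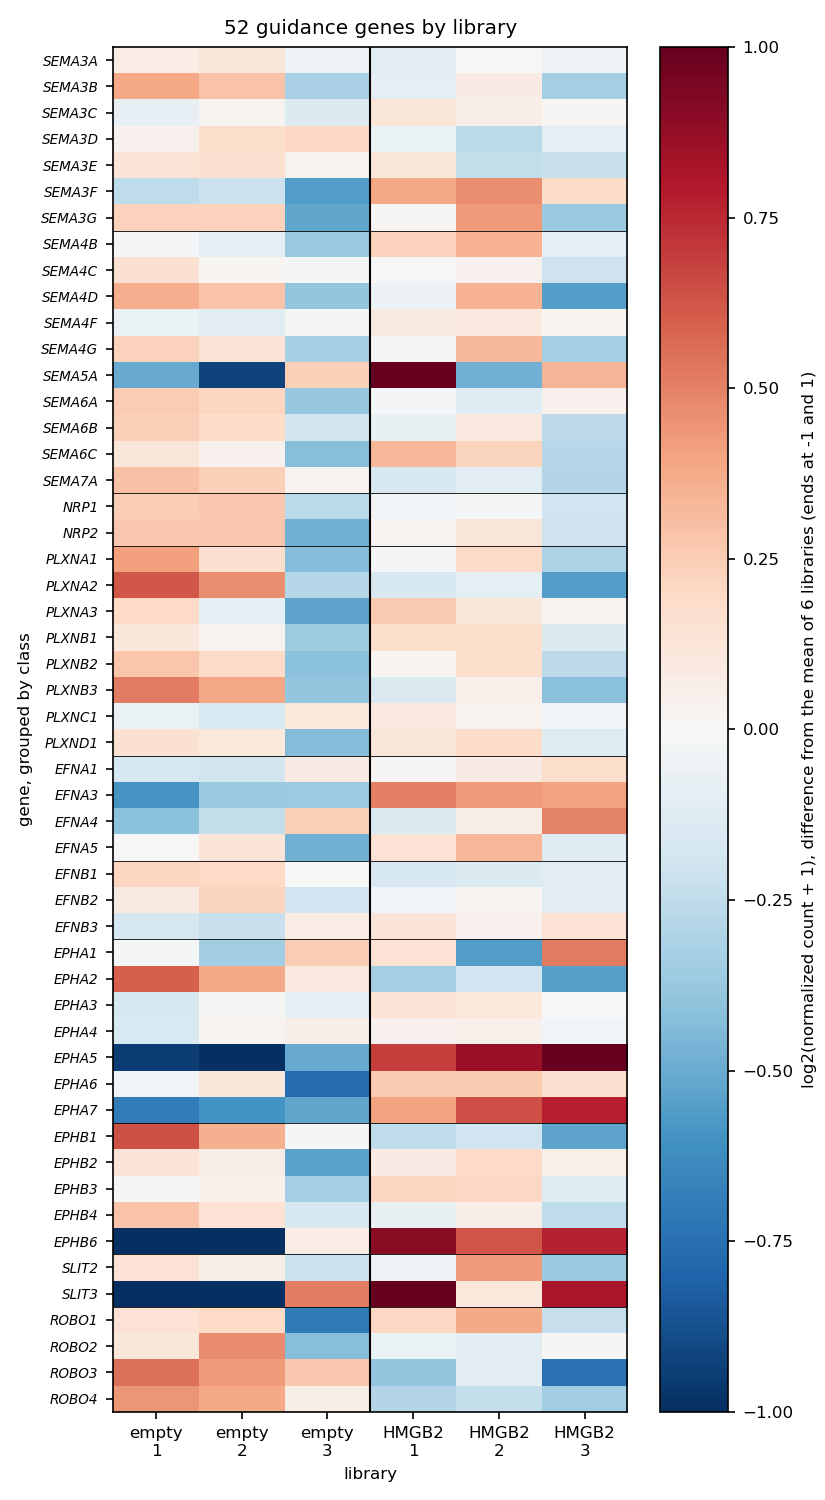
Deviation of each library (columns) from the mean of the 6 libraries for 52 members (rows, by class), as log2(normalized count + 1), with the color scale ending at -1 and 1. The replicate 3 column is the lowest of its group in 37 of 52 members among the controls and in 37 of 52 among the overexpressing cells, whereas EPHA7, EPHA5 and EPHB6 are low in all controls or high in all overexpressing libraries.

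**Figure D5:**
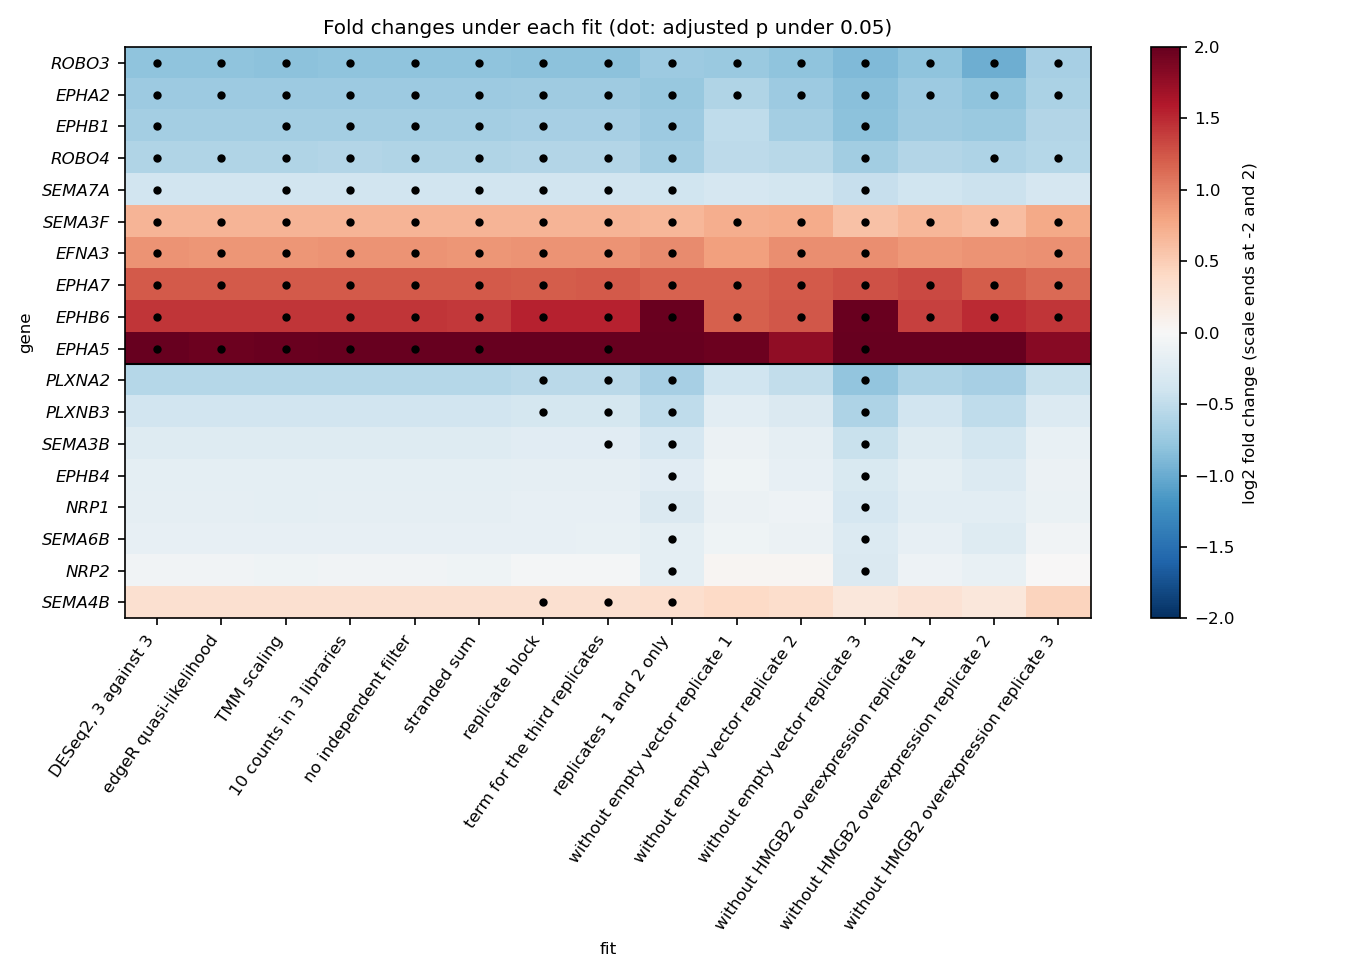
Log2 fold changes (color, scale ending at -2 and 2) of the 10 called members (upper block) and the 8 members called only under an alternative (lower block) in the DESeq2 fit and 14 alternatives (columns), with a dot where the adjusted p is under 0.05. ROBO3, EPHA2, SEMA3F and EPHA7 have a dot in every column, and the dots of the lower block fall in the columns that leave out or model replicate 3.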

How the data were processed

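Poly(A) RNA of 6 A375 libraries, in 2 groups of 3 by the genotype label, was sequenced. The submitters' processing notes list bcl2fastq 2.20, FastQC, Trimmomatic and STAR, and alignment was to hg38. STAR is listed without version, and the annotation release was not given in the sources used here. The deposited values were raw counts of uniquely mapped reads per gene. The column for either strand was used; it sets aside reads in places shared by genes (between 10.7% and 11.4% of reads), which undercounts overlapping genes. The 4 summary lines, between 16.7% and 24.0% of reads, were left out. Symbols, positions and exon lengths came from GENCODE 44, which matched 57532 of 58302 identifiers, and promoters from RefSeq.

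Counts were tested with DESeq2 1.42.0 (Wald test, group alone) in R 4.3.3, after a test on simulated data. The study's methods name DESeq2 with default parameters. An adjusted p was given to 18878 of 32925 detected genes. Fold changes are unshrunken, and intervals are 95%. With 3 against 3 an exact permutation test cannot give a p under 0.1 and was not used. TPM was computed from counts and merged exon length. The alternatives were edgeR 4.0.16, TMM scaling, a minimum of 10 counts in 3 libraries, DESeq2 without its filter on low means, counts summed over the 2 stranded columns, a replicate block, a term for the replicates numbered 3, replicates 1 and 2 alone, and each library left out.

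Named in full were HMGB2, members called in the main or an alternative fit, the highest member of each of 10 classes, members without overlap and a log2 fold change of at least 0.5 in size, members keeping under 50% of their stranded sum, and called genes of the signalling list; others appear to account for all members. The members, the signalling list and the marker lists were chosen with earlier results of these data known.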

Additional observations from a re-analysis of the deposited data

How the results depend on the processing

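The HMGB2 fold change kept its direction and call under all 14 alternatives, and so did EPHA2, EPHA7, SEMA3F and ROBO3. Of 348 values of the 25 members named by rule under the alternatives, 286 kept direction and side of the threshold, 24 lost a call, 22 gained one and 16 changed sign, and the cause was not tested. Members called lower numbered 5 of 56 in the DESeq2 fit (8.93%, against 2.64% of all genes). With edgeR they were 3 of 53 (5.66% against 1.52%). They were 8 of 51 with a term for the replicates numbered 3 (15.7% against 8.68%). With replicates 1 and 2 alone they were 12 of 50 (24% against 9.11%). When each library was left out in turn they numbered between 2 and 12. The 12 of 51 came without empty vector replicate 3 (23.5% against 9.1%). Members called higher ranged between 3 and 5 when each library was left out (between 5.36% and 9.8%, against between 0.839% and 8.03% of all genes). Over all genes, 432 higher and 498 lower calls became 215 and 255 with edgeR, 1372 and 1362 with the replicate 3 term, 1205 and 1408 with replicates 1 and 2 alone, and between 155 and 1332 higher and between 208 and 1509 lower when each library was left out. Calls on the signalling list (6 of 74, 8.11%) became 3 (4.11%, against 2.81% of all genes), 18 (24.7% against 17.4%) and 14 (19.2% against 16.9%) under the same 3 settings, and between 1 and 14 when each library was left out.

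No pairing by replicate number was assumed in the main fit. Deviations of same-numbered libraries correlated at 0.0906, 0.142 and 0.349 over genes. Empty vector replicate 1 correlated more with overexpression replicate 2 (0.212) than with its own number. Empty vector replicate 3 correlated most with its own number, and negatively with overexpression replicates 1 (-0.137) and 2 (-0.253). With 3 libraries a group, these values cannot decide whether the samples were paired. A replicate block gave 5 of 50 members higher and 7 lower (10% and 14%, against 5.9% and 6.23% of all genes). The block called 888 genes higher and 937 lower, and 9 on the signalling list (12.5%, against 12.1% of all genes). EPHA5 received no adjusted p under the block or with replicates 1 and 2 alone.

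Of all 60 members, 18 changed sign under at least 1 alternative, 6 of them among the 25 named by rule, and 0 of the 10 called members did. SEMA4G was 0.078 and EPHA1 -0.37 in the stranded sum. When each library was left out, SEMA4G ranged from -0.20 to 0.13, NRP2 from -0.28 to 0.041, PLXNB2 from -0.24 to 0.068, EPHA1 from -0.15 to 0.37, SLIT2 from -0.20 to 0.21 and ROBO1 from -0.031 to 0.36. Members under 100 reads in all, such as EPHA5, PLXNA4 and SLIT3, were limited by depth, with standard errors of at least 0.57 on the log2 scale.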
